A study of Mus musculus with 6 samples.

Results

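The transcripts described here come from the mitochondrial chromosome of 4T1 cells, which are mouse mammary carcinoma cells kept as a line. Members were all entries of the deposited gene table whose name starts with mt-, which gave 37 of 56448 genes: 13 protein-coding, 2 rRNA and 22 tRNA genes. Messenger RNA libraries were sequenced from 3 samples whose genotype is labelled in9 and 3 whose genotype is labelled LV2, all of them 4T1 cells grown in medium with fetal bovine serum. The design text speaks of a line in which lentivirus had stably lowered the microRNA miR-9, and of a control group, but it ties neither label to one of them. Each difference is therefore given as in9 minus LV2. Whether the line is 1 clone, and whether the replicates were cultured apart, is not stated, so the p-values rest on a spread between libraries that may be technical. The extraction protocol speaks of tissue and the design text of a microarray, while the other labels describe cultured cells and sequencing.

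The mitochondrial chromosome is a small circle that is transcribed from both strands into long polycistronic RNAs. These are cut at the tRNAs that punctuate the genes, and most of the released messenger RNAs receive a short poly(A) tail inside the organelle. The protein-coding genes specify membrane subunits of respiratory complexes I, III and IV and of the ATP synthase, whose remaining subunits are encoded in the nucleus. Complex II is encoded wholly in the nucleus. Because the chromosome is present in many copies per cell, its transcripts are among the most abundant in RNA libraries, and old insertions of mitochondrial DNA in the nuclear chromosomes can resemble them closely.

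The values are TPM (a level per gene length that sums to the same total in each library), so the sequencing depth is unknown and counting error cannot be given. On the first principal component of all tested genes, in9 replicate 1 lay at -2.70, far from the 26.1 and 27.8 of replicates 2 and 3, and the LV2 libraries lay between -22.2 and -6.98. The counts of calls and the main shares are therefore given with and without that library. The cells were checked against markers fixed for other cell types. All 6 epithelial markers were above 35 TPM in every library, with keratin genes Krt8 and Krt18 highest, and their sum was 2242 to 2299 TPM in in9 and 2343 to 2397 TPM in LV2, without overlap. The adhesion gene Epcam was at 38.1, 36.7 and 35.9 TPM in in9 and at 47.7, 45.8 and 43.9 TPM in LV2 (log2 fold change -0.30 ± 0.06 SE, adjusted p = 0.0633 in limma and 0.0281 without in9 replicate 1). Cdh1, the gene of E-cadherin, was at 129.9, 147 and 147 TPM in in9 and at 130.4, 123 and 118 TPM in LV2 (0.19 ± 0.07, adjusted p = 0.201 and 0.0397 without in9 replicate 1). The leukocyte marker Adgre1 was listed at 0 in all libraries, Ptprc did not exceed 0.12 TPM and Cd3e did not exceed 0.11 TPM. Cd68, the 1 leukocyte marker above 1 TPM, was at 33.6, 40.6 and 38.7 TPM in in9 and at 28.8, 27.5 and 28.3 TPM in LV2 (adjusted p = 0.0744 in limma and 0.0134 without in9 replicate 1). Summed endothelial markers were at 1.97 to 2.17 TPM in in9 and 1.72 to 1.95 TPM in LV2, and summed fibroblast markers at 7.95 to 8.43 TPM in in9 and 4.74 to 6.70 TPM in LV2. The endothelial sum was mostly Cdh5. Nearly all of the fibroblast sum was Pdgfra, at 7.71, 8.12 and 8.31 TPM in in9 and 6.52, 5.27 and 4.56 TPM in LV2. Col1a1, Col1a2 and Dcn did not exceed 0.23 TPM. The part of these markers in the results was not tested. Mature miR-9 is not measured by this assay, so the labels were not checked against it.

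Together the 37 genes held 6.42%, 7.64% and 7.49% of all TPM in the in9 libraries, against 5.90%, 5.97% and 6.01% in the LV2 libraries. Every in9 library lay above every LV2 library, with a difference between the means of 1.22 percentage points (exact two-sided permutation test, p = 0.1, the smallest that 3 libraries against 3 allow). The gene mt-Atp8 alone held 3.37%, 4.43% and 4.36% in in9 and 3.17%, 3.24% and 3.21% in LV2. It made up 0.84 of the 1.22 points, and a smaller part of the difference in shares weighted by gene length (given below with mt-Atp8). Without mt-Atp8 the other 12 protein-coding genes held 2.98%, 3.13% and 3.05% in in9, against 2.66%, 2.65% and 2.72% in LV2, a difference of 0.375 points that again left the groups apart (exact p = 0.1). The 2 rRNA genes held 0.072%, 0.086% and 0.076% in in9, against 0.069%, 0.072% and 0.071% in LV2, and these ranges met (exact p = 0.2). In9 replicate 1 was the in9 library nearest to LV2 for mt-Atp8 and for the whole set. Without it the difference was 1.61 points for the whole set and 0.414 points for the 12 genes. The 84 cytosolic ribosomal protein genes had every in9 library below every LV2 library, at 12.4%, 10.4% and 10.6% of all TPM in in9 and 12.7%, 13.2% and 13.3% in LV2, and without in9 replicate 1 the means were 10.5% in in9 and 13.1% in LV2. Because TPM is a share, such a difference can shift the other values. With mt- and ribosomal protein genes left out of the denominator, the difference was 1.43 points for the whole set and 0.429 points for the 12 genes. The part of the ribosomal protein genes in the mitochondrial values was not tested further. In bulk RNA fewer cells that express a transcript and less RNA per cell cannot be told apart.

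**Figure D1:**
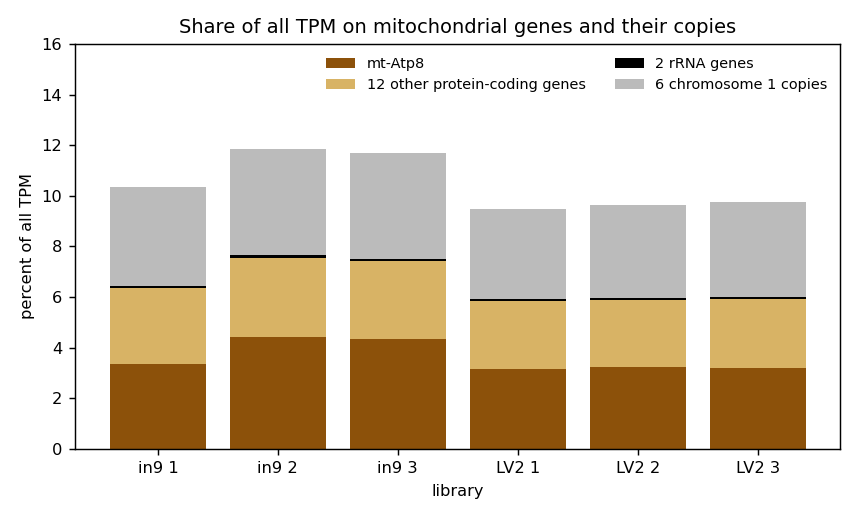
Percent of all TPM (vertical axis) in each in9 and LV2 library (horizontal axis), stacked for mt-Atp8, the 12 other protein-coding genes, the 2 rRNA genes and 6 annotated copies on chromosome 1. The stacks reach 10.3% to 11.9% in in9 and 9.48% to 9.76% in LV2, and the mt-Atp8 part of in9 replicate 1, at 3.37%, is the lowest of the in9 libraries.

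The 22 mitochondrial tRNA genes, which supply the organelle's own translation, were listed at 0 in all 6 libraries. They are 59 to 75 bases long. Of all 835 genes of that length in the table, 1 had a value above 0 in any library, a share of 0.12%. In the next class, up to 100 bases, 2 of 1433 genes were above 0, a share of 0.14%. The share was 15.3% among the 2288 genes of the class that holds mt-Atp8 and 57.2% among the longest class counted, up to 2000 bases. No level and no difference between groups can be given for the tRNA genes, whose listed 0 is shared by nearly all genes as short.

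**Figure D2:**
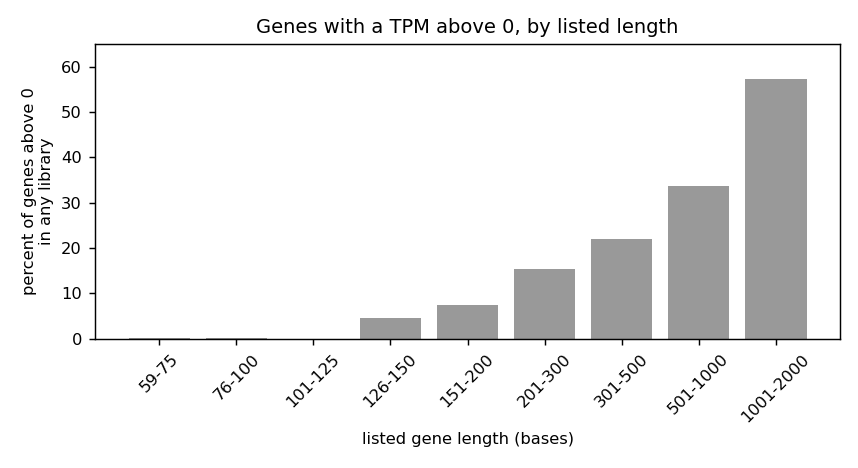
Percent of genes with a TPM above 0 in any library (vertical axis) by listed gene length in bases (horizontal axis). The class of 59 to 75 bases, which holds the mitochondrial tRNA genes, is at 0.12%, and the shares climb to 57.2% in the longest class drawn.

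The 2 ribosomal RNAs of the organelle, which form the cores of its ribosome, were the lowest of the tested members by copy-corrected levels (given below). The libraries were made from messenger RNA, so this rank does not give the amount of rRNA in the cells. The small subunit rRNA gene mt-Rnr1 (chrM:70-1024 in mm10, plus strand) was at 268, 317 and 276 TPM in in9, against 235, 266 and 259 TPM in LV2. The large subunit rRNA gene mt-Rnr2 (chrM:1094-2675) was at 455, 548 and 488 TPM in in9, against 454, 458 and 451 TPM in LV2. For mt-Rnr1 each in9 value lay above each LV2 value, whereas the mt-Rnr2 groups met at in9 replicate 1. The log2 fold changes were 0.18 ± 0.08 and 0.13 ± 0.07 (SE), and neither passed limma's test (adjusted p = 0.282 and 0.365). Without in9 replicate 1 they were 0.22 and 0.19, without in9 replicate 2 they were 0.10 and 0.05, and after trimmed-mean scaling 0.11 and 0.06. The ratio of mt-Rnr2 to mt-Rnr1 was 1.73 ± 0.0356 in in9 and 1.80 ± 0.117 in LV2 (SD, n = 3 each).

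Levels of 6 protein-coding genes could not be read from their own rows alone. A search of the GENCODE M21 transcripts with the mitochondrial genes found a run of 7 annotated pseudogenes on chromosome 1 (chr1:24611535-24616197, minus strand), which lie within 4663 bases in the order of the mitochondrial genes from mt-Co1 to mt-Nd4. The bases between the annotated copies were not compared. Gm28661 was identical to mt-Co2 over all 681 bases it covers and Gm10925 to mt-Atp6 over 678 bases. Gm28437 was identical to mt-Co3 over 783 bases and Gm10222 to mt-Nd4l over 294 bases. Gm28438 differed from mt-Nd3 at 1 of 345 bases, T3C, and Gm29216 from the end of mt-Co1 at 1 of 483 bases, A1066T (positions counted from 1 at the first base of the mitochondrial gene, whose base is given first). For the 5 genes covered from their first base, the mitochondrial row keeps only 1 to 3 bases at its end that the copy lacks, and a read from the matching bases fits both rows equally. The sequences below, from GENCODE M21 on mm10, show how little tells the rows apart. The first pair gives the end of mt-Co2 (chrM:7637-7696, plus strand) and of its copy (chr1:24614885-24614941, minus strand), with the bases that the copy lacks in capitals. The second pair gives the start of mt-Nd3 (chrM:9459-9518, plus strand) and of its copy (chr1:24613060-24613119, minus strand), with the differing base in capitals.
mt-Co2: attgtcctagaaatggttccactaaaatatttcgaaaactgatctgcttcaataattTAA
Gm28661: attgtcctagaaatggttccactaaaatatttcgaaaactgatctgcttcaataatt
mt-Nd3: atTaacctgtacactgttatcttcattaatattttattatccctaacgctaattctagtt
Gm28438: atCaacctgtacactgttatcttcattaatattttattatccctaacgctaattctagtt

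Most of the TPM of these pairs was listed under the pseudogene. Gm28661 stood at 12563, 13417 and 13350.5 TPM in in9 and at 11468, 11521 and 12304 TPM in LV2, whereas mt-Co2 itself stood at 382, 281 and 267 TPM in in9 and at 215, 432 and 166 TPM in LV2. Of the summed level of mt-Co2 and its copy, weighted by length, 96.4% to 98.7% was on the copy. That share was 93.4% to 97.8% for mt-Atp6, 89.8% to 97.1% for mt-Co3, 84.0% to 94.1% for mt-Nd4l and 65.2% to 73.8% for mt-Nd3. For mt-Co1, of which the copy covers only the end, it was 6.88% to 8.85%. The split went the opposite way in mt-Nd4: the pseudogene Gm28439 is identical to its first 876 bases and was listed at 0. Older copies elsewhere were close to 0 as well, such as Gm13340 on chromosome 2, which matches the whole of mt-Co1 at 97.6% identity and averaged 0.0067 TPM. The 6 chromosome 1 copies with values held 3.926%, 4.218% and 4.202% of all TPM in in9 and 3.57%, 3.67% and 3.75% in LV2. Mitochondrial genes and copies together held 10.3%, 11.9% and 11.7% in in9 and 9.48%, 9.64% and 9.76% in LV2. Among the 10 highest genes of the table, 4 were such copies.

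**Figure D3:**
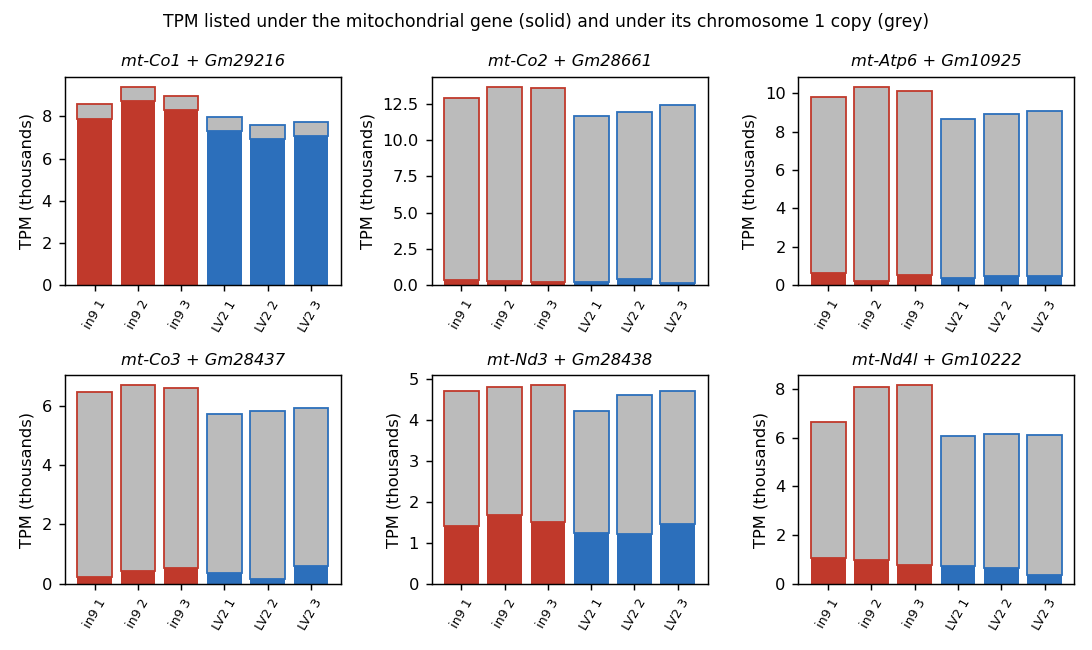
TPM divided by 1000 (vertical axes) of 6 mitochondrial genes (solid, red for in9 and blue for LV2) and of their chromosome 1 copies weighted by length (grey), stacked for each library. The full bar of mt-Co3 varies by 1.77% in in9 and 1.73% in LV2 (coefficient of variation), and for mt-Co2 96.4% to 98.7% of each bar is grey.

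In mt-Co2, mt-Atp6 and mt-Co3 the spread between replicates was far smaller for the sum of gene and copy than for the gene, while for mt-Co1 it was 4.42% in in9 and 2.49% in LV2 for the sum, against 5.33% and 2.39% for the gene (coefficients of variation). The coefficient of variation of mt-Co3 was 37.8% in in9 and 57.7% in LV2, and that of its sum 1.77% in in9 and 1.73% in LV2. For mt-Atp6 it was 45.3% in in9 and 13.2% in LV2, against 2.64% and 2.62% for the sum. The standard error of the log2 fold change was 13.7 times smaller for the sum of mt-Co3, 8.85 times for mt-Atp6, 7.71 times for mt-Co2, 3.36 times for mt-Nd4l, 1.83 times for mt-Nd3 and 1.10 times for mt-Co1. The copy rows alone had standard errors of 0.0418, 0.0489 and 0.0497 for mt-Co3, mt-Atp6 and mt-Co2, beside 0.036, 0.041 and 0.0448 for their sums. As most of each of these sums is on the copy, their small spread does not show that gene and copy hold the same RNA. All sums of gene and copy, called copy sums below, were chosen after the values were seen. They do not say which chromosome the RNA came from.

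Complex I, the NADH dehydrogenase, takes 7 subunits from the mitochondrial chromosome. The gene of its core subunit mt-Nd4 (chrM:10167-11544, plus strand) was at 2574, 2644 and 2583 TPM in in9 and at 2140.5, 2177 and 2253 TPM in LV2. No in9 value came near an LV2 value, and the gene rose in in9 by 0.25 ± 0.04 (SE) on the log2 scale, or 1.19-fold, and limma gave an adjusted p of 0.0453. It was the 1 member called higher of 15 tested, and 0 were called lower, where 0.821% of 13406 genes were called higher and 0.194% lower. The call held without in9 replicate 1 (0.25 on the log2 scale, adjusted p = 0.0143). Without any other single library the log2 fold change was 0.23 to 0.27 and the adjusted p 0.144 to 0.228, and after trimmed-mean scaling between libraries they were 0.18 and 0.185. Its copy Gm28439 was listed at 0, so its level is the same with or without the copy.

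Of the other complex I genes, 3 without a copy that held TPM had groups apart. The gene mt-Nd1 (chrM:2751-3707), for the subunit at the quinone site, was at 4892, 5355 and 5318 TPM in in9, against 4408, 4586 and 4732 TPM in LV2. The antiporter-like subunit gene mt-Nd2 (chrM:3914-4951) was at 2995, 3156 and 3051 TPM in in9, against 2756, 2777 and 2831 TPM in LV2. Its relative mt-Nd5 (chrM:11742-13565) was at 1527, 1535 and 1515 TPM in in9, against 1412, 1391 and 1383 TPM in LV2. In these 3 genes every in9 library exceeded every LV2 library. Their log2 fold changes were 0.18 ± 0.05, 0.14 ± 0.04 and 0.13 ± 0.03 (SE), and they missed the threshold (limma, adjusted p = 0.142, 0.131 and 0.114). Without in9 replicate 1 they passed it, at 0.22, 0.15 and 0.13 (adjusted p = 0.0225, 0.0279 and 0.0313). The gene mt-Nd6 (chrM:13552-14070) is the 1 protein-coding gene on the minus strand, and its groups met, with 1456, 1370.2 and 1301 TPM in in9 and 1226, 1272 and 1333 TPM in LV2 (log2 fold change 0.11 ± 0.06 SE, adjusted p = 0.342 in limma).

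The small subunit genes mt-Nd3 and mt-Nd4l belong to the pairs with a copy. On its own row mt-Nd3 (chrM:9459-9806) was at 1408, 1670.5 and 1509 TPM in in9 and 1242, 1210.1 and 1463 TPM in LV2, with overlapping groups. Its copy sum was at 4721, 4807 and 4846 TPM in in9 and 4213, 4619 and 4704 TPM in LV2, a log2 fold change of 0.09 ± 0.05 (SE) against 0.23 ± 0.09 for the row alone. The gene mt-Nd4l (chrM:9877-10173), whose last 7 bases overlap mt-Nd4, was at 1065, 986 and 752 TPM in in9 and 736, 634 and 360.0 TPM in LV2. That row differed by 0.74 ± 0.27 (SE) on the log2 scale (adjusted p = 0.212 in limma), which was 0.44 without LV2 replicate 3, and its copy sum gave 0.31 ± 0.08 (adjusted p = 0.12). The copy sum itself was at 6653, 8085 and 8144 TPM in in9 and 6067, 6146 and 6118 TPM in LV2, so that in9 replicate 1 lay nearer to LV2 than to the other in9 libraries.

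Complex III has 1 mitochondrially encoded subunit, cytochrome b. Its gene mt-Cytb (chrM:14145-15288, plus strand) was at 4723, 4932 and 4884 TPM in in9, against 4434, 4451 and 4556 TPM in LV2. The groups were apart, with a log2 fold change of 0.11 ± 0.04 (SE) that did not pass the test (adjusted p = 0.177 in limma) and passed it without in9 replicate 1 (0.13, adjusted p = 0.0279). Across the strands, the ratio of mt-Nd6 to its neighbour mt-Cytb was 0.284 ± 0.0217 in in9 and 0.285 ± 0.00809 in LV2 (SD, n = 3 each), with overlapping groups. The copy of mt-Cytb on chromosome 4, Gm11410, matches at 92.9% identity and was listed at 0.

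Complex IV, cytochrome c oxidase, is built around the catalytic subunits encoded by mt-Co1, mt-Co2 and mt-Co3. The gene mt-Co1 (chrM:5328-6872) was at 7858, 8742 and 8287 TPM in in9, against 7286, 6951 and 7069 TPM in LV2, with groups apart and a difference of 0.22 ± 0.05 (SE) on the log2 scale (adjusted p = 0.0971 in limma, and 0.0166 without in9 replicate 1). Its copy sum was at 8593, 9388 and 8986 TPM in in9, against 7994, 7611 and 7751 TPM in LV2, a log2 fold change of 0.21 ± 0.05. On its own row mt-Co2 (chrM:7013-7696) had overlapping groups and a log2 fold change of 0.30 ± 0.35 (SE). Its copy sum was at 12890.3, 13639 and 13559 TPM in in9, against 11632, 11902 and 12416 TPM in LV2, and every in9 value exceeded every LV2 value (0.16 ± 0.04, adjusted p = 0.139 in limma). For mt-Co3 (chrM:8607-9390) the row alone gave 244, 418 and 547 TPM in in9 and 360, 169 and 603 TPM in LV2, without order between the groups. The copy sum gave 6453, 6685 and 6581 TPM in in9 and 5728, 5834 and 5930 TPM in LV2, a log2 fold change of 0.17 ± 0.04 (adjusted p = 0.0798) in place of 0.20 ± 0.49.

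ATP synthase takes the proton channel subunit ATP6 and the small stabilising subunit ATP8 from the mitochondrial chromosome. Their reading frames share 43 bases, and in mammals both are translated from a single bicistronic messenger RNA. The frame of mt-Atp8 (chrM:7766-7969, plus strand, GENCODE M21 on mm10) is printed because it is the highest row of the whole table and is only 204 bases long. Capitals mark the bases shared with mt-Atp6.
mt-Atp8: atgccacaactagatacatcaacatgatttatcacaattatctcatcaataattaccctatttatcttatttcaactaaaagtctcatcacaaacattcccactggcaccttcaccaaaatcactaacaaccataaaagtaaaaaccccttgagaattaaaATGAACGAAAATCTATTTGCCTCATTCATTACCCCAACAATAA

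The row of mt-Atp8 was at 33678, 44251 and 43553.5 TPM in in9 and at 31728, 32439 and 32123 TPM in LV2. In9 replicate 1 was nearer to the LV2 libraries than to the other in9 libraries. The means were 40494 ± 5913 TPM in in9 and 32097 ± 356 TPM in LV2 (SD, n = 3 each), which is 0.32 ± 0.11 (SE) on the log2 scale and did not pass limma's test (adjusted p = 0.179). Without in9 replicate 1 the log2 fold change was 0.45 ± 0.02 (adjusted p = 0.00254). Unlike its neighbours, mt-Atp8 has no annotated copy of its own in the chromosome 1 run. Its last 43 bases, shared with mt-Atp6, are identical to the start of Gm10925. The 233 bases between Gm28661 and Gm10925 equal in number the mitochondrial bases between the matching parts of mt-Co2 and mt-Atp6, where most of mt-Atp8 lies, and no gene of the table was annotated in that gap. Among the 173 genes of 150 to 250 bases with a mean TPM of at least 1, the next highest averaged 2766 TPM and the median was 5.36 TPM. Multiplied by its listed length, mt-Atp8 took 0.416% ± 0.0502 of the summed product of TPM and length in in9 and 0.339% ± 0.00761 in LV2 (SD, n = 3 each), while all mitochondrial genes took 2.25% ± 0.0609 in in9 and 1.99% ± 0.0440 in LV2.

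The gene mt-Atp6 (chrM:7927-8607) was at 641, 232 and 530.3 TPM on its own row in in9, against 386, 489.7 and 489.7 TPM in LV2. It was the 1 tested member with a negative log2 fold change, -0.08 ± 0.36 (SE). Its copy sum was at 9786, 10317 and 10086 TPM in in9 and 8629.7, 8902 and 9092 TPM in LV2, with groups apart and a positive log2 fold change of 0.18 ± 0.04 (adjusted p = 0.0949 in limma). The ratio of mt-Atp8 to mt-Atp6 was 52.5, 191 and 82.1 in in9 and 82.3, 66.2 and 65.6 in LV2 from the rows alone. With the copy sum of mt-Atp6 it was 3.44, 4.29 and 4.32 in in9 and 3.68, 3.64 and 3.53 in LV2, so the ratio in in9 replicate 1 lay below all LV2 values and those of the other in9 libraries above them.

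**Figure D4:**
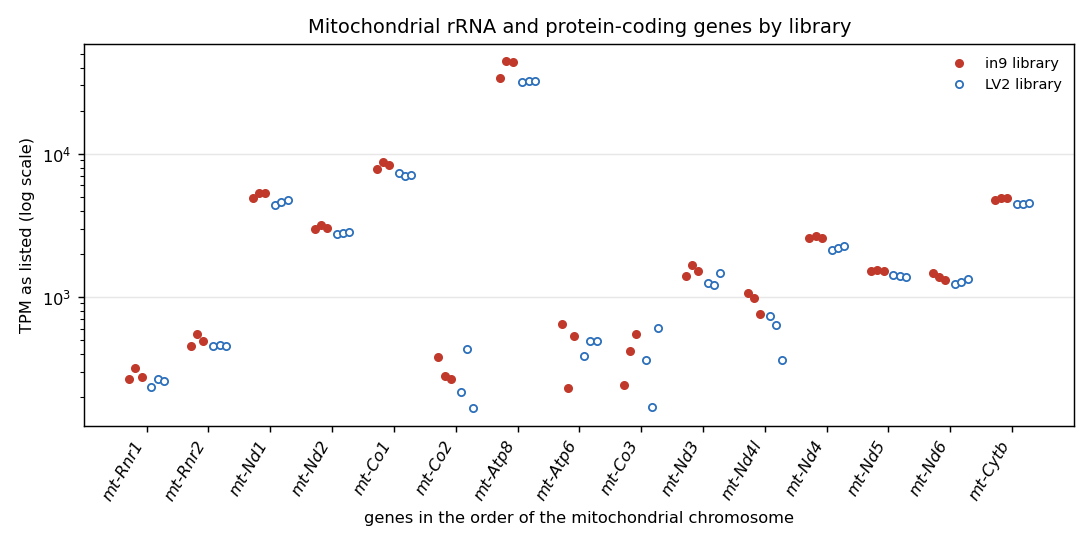
TPM as listed (vertical axis, log scale) of the 2 rRNA and 13 protein-coding genes in chromosome order (horizontal axis), with filled points for in9 and open points for LV2 libraries. The points of mt-Co2, mt-Atp6 and mt-Co3 lie between 166 and 641 TPM and are widely spread, while mt-Atp8 lies between 31728 and 44251 TPM.

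The order of levels depended on the copies. By the rows alone mt-Atp8 was highest, followed by mt-Co1 and mt-Nd1, and mt-Co2 ranked 14 of 15 with a mean of 290.4 TPM. By copy sums mt-Co2 ranked 2 with a mean of 12673 TPM, followed by mt-Atp6 with 9469 TPM, mt-Co1 with 8387 TPM, mt-Nd4l with 6869 TPM and mt-Co3 with 6202 TPM. Next came mt-Nd1 with 4882 TPM, mt-Cytb with 4663 TPM and mt-Nd3 with 4652 TPM. The ranges of these 3 genes over the libraries overlapped, and the order of mt-Nd1 and mt-Cytb held in 5 of 6 libraries and that of mt-Cytb and mt-Nd3 in 4. Below them mt-Nd2, mt-Nd4, mt-Nd5 and mt-Nd6 averaged 2928, 2395, 1460.4 and 1326 TPM, in this order in each of 6 libraries, although the ranges of mt-Nd5 and mt-Nd6 over the libraries overlapped. The ranges of mt-Atp6 and mt-Co1, of mt-Co1 and mt-Nd4l and of mt-Nd4l and mt-Co3 overlapped too. The rRNA genes were lowest, in libraries made from messenger RNA, so their place in this order does not give their amount in the cells. The order also depended on gene length. Multiplied by listed length, the copy-corrected mean was highest for mt-Co1 (12957980), followed by mt-Co2 (8668298) and mt-Atp8 (7404285). That product was 3300613 for mt-Nd4 and 2039999 for mt-Nd4l, the reverse of their TPM order. Whether a short listed length raised the TPM of mt-Atp8 and mt-Nd4l was not tested.

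Across the 15 tested members 9 had every in9 library above every LV2 library, and 13 did so by copy sums (not mt-Rnr2 and mt-Nd6), where 17.4% of all tested genes did. None had every in9 library below every LV2 library, where 8.08% of all tested genes did. Log2 fold changes were positive for 14 members, and for 15 by copy sums, against 63.7% of all tested genes. Before adjustment, limma's p was under 0.05 for 9 members, each higher, and for 11 by copy sums, also each higher. Over all tested genes that share was 13.6% higher and 5.86% lower, or 13.6% and 5.87% by copy sums. After trimmed-mean scaling the unadjusted p was under 0.05 for 3 members, and for 2 by copy sums, and it was so for 3 members without a filter on low values. With the adjusted p, copy sums again called mt-Nd4 alone (adjusted p = 0.0451), against 0.828% of all genes higher and 0.194% lower. The median log2 fold change was 0.18 over the members, 0.18 without mt-Atp8 and 0.17 by copy sums, beside 0.06 over all tested genes. After trimmed-mean scaling these medians were 0.11 for the members and -0.00 for all tested genes, and after quantile normalization 0.22 and -0.00. Quantile normalization gives the highest gene the same value in each library, and the log2 fold change of mt-Atp8 was then 0.00. Without in9 replicate 1, 7 members were called higher and 0 lower in limma, against 7.25% of all genes higher and 3.8% lower. By copy sums without that library 11 were called higher and 0 lower, against 7.3% and 3.83% of all genes: every protein-coding gene other than mt-Nd3 and mt-Nd6. That library was the lowest in9 library for 10 of 15 members as listed and for 13 by copy sums. For those members leaving it out raises the in9 mean by construction. Leaving out any other single library gave 0 calls among the members as listed. Members cut from the same precursor RNA are not independent of each other.

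**Figure D5:**
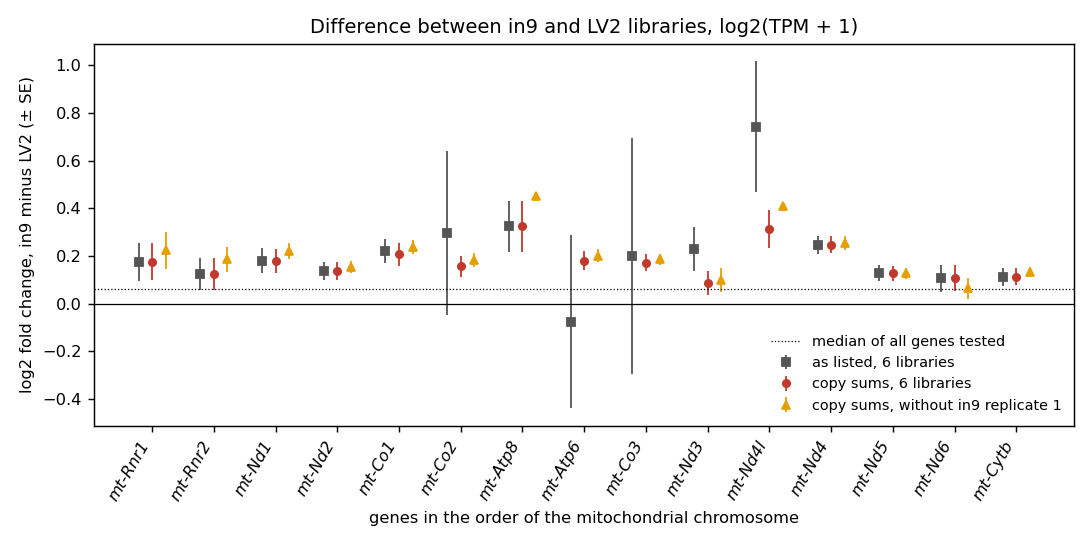
Log2 fold change of in9 minus LV2 on log2(TPM + 1) values with its standard error (vertical axis) for 15 genes in chromosome order (horizontal axis), as listed, by copy sums, and by copy sums without in9 replicate 1. Copy sums lie between 0.09 and 0.32, above the dotted median of 0.06 of all tested genes, and the wide bars of mt-Co2, mt-Atp6 and mt-Co3 shrink.

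The nuclear partners of these genes were examined in 8 lists, chosen with earlier results of these data known, of which 95 genes were tested. None was called in limma in either direction with all libraries, and before adjustment the p of 4 higher and 11 lower genes was under 0.05, where that held for 13.6% of all tested genes higher and 5.86% lower. The machinery that transcribes the mitochondrial chromosome and its regulators had a median log2 fold change of 0.05 over 16 genes. The gene with the smallest p was Gabpb1, a subunit of nuclear respiratory factor 2 (log2 fold change -0.16 ± 0.06 SE, adjusted p = 0.210 in limma). Genes of mitochondrial DNA replication and upkeep had a median of -0.06 over 13 genes, with Primpol, a primase-polymerase, at 0.30 ± 0.12 (adjusted p = 0.228). Genes of mitochondrial RNA processing and decay had a median of 0.03 over 21 genes, with Fastkd3 at 0.28 ± 0.10 (adjusted p = 0.201). After trimmed-mean scaling the medians of these 3 lists were -0.01, -0.12 and -0.03, so that the first and the third turned sign.

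The nuclear subunits of the complexes that also hold mitochondrial subunits had negative medians. The median log2 fold change was -0.06 over 7 core subunit genes of complex I, -0.09 over 9 genes of complex III, -0.17 over 10 genes of complex IV and -0.12 over 15 genes of ATP synthase. It was -0.01 over the 4 genes of complex II. After trimmed-mean scaling these medians were -0.13, -0.16, -0.23 and -0.18, and -0.07 for complex II, beside -0.00 over all tested genes. The genes with the smallest p were Ndufs7 of complex I (-0.18 ± 0.04 SE, adjusted p = 0.0779 in limma), Uqcrb of complex III (-0.30 ± 0.08, adjusted p = 0.139), Cox7c of complex IV (-0.20 ± 0.07, adjusted p = 0.221) and Atp5g3 of ATP synthase (-0.20 ± 0.06, adjusted p = 0.155). Sdha, the flavoprotein subunit of complex II, was at 0.15 ± 0.05 (adjusted p = 0.158). Without in9 replicate 1, 20 of the 95 genes were called lower and 4 higher in limma, against 3.8% and 7.25% of all genes. The 4 higher genes, named after their values were seen, were Gabpa, Pnpt1, Sdha and the catalytic subunit gene Atp5b. Of the lower genes, 8 encode ATP synthase subunits, with Atp5e at -0.67 ± 0.04 (SE, adjusted p = 0.00369) as the largest change. A further 5 encode complex IV subunits (Cox4i1, Cox5b, Cox6b1, Cox6c and Cox7c) and 5 complex III subunits (Uqcr10, Uqcr11, Uqcrb, Uqcrh and Uqcrq). In9 replicate 1 was the highest in9 library for each lower gene, so leaving it out lowers their in9 means by construction. For Uqcr11, Cox5b, Cox6b1, Cox6c, Atp5g1 and Atp5h, but no other lower gene, it lay above every LV2 library. With all libraries Uqcr11 was at -0.03 ± 0.13 (SE, adjusted p = 0.911 in limma). For the 4 higher genes it was the lowest in9 library. The summed TPM of the complex IV genes was 4403 to 5297 in in9 and 5087 to 5249 in LV2, so the groups overlapped. The difference between the mitochondrial and the nuclear subunits was not tested.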

How the data were processed

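Messenger RNA of 4T1 cells was measured in 3 in9 and 3 LV2 libraries. The authors deposited TPM values per gene and library, beside group means that equal the library means within 3.33e-05. The genome build, mm10, is named in the submitters' processing notes. Aligner, quantifier, annotation and the assignment of reads with several matches: not given in the sources used here. Depth is unknown, so no count model was used. Gene classes, positions and transcript sequences came from GENCODE M21, which matched 55141 of 56448 identifiers.

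The test took the 13406 genes whose mean TPM reached 1, as log2(TPM + 1), in9 minus LV2, with limma 3.58.1 (R 4.3.3) and an intensity trend, two-sided, with Benjamini-Hochberg adjustment over all genes tested and calls at an adjusted p under 0.05. Fold changes on this scale understate those of low genes. Shares were compared with exact permutation tests (scipy 1.17.1). Copies were sought with blastn 2.17.0 (identity of at least 85%), and a copy sum adds the TPM of a chromosome 1 copy with a mean TPM of at least 1 that covers at least 25% of a gene, multiplied by copy length over gene length. The fit was checked on simulated data with changes of 1.5-fold and 2-fold. It recovered 59.7% and 86.1% of them, and 5.88% of its calls were false. The simulated noise was independent between genes and had the same spread in both groups, and the changed genes had a mean of at least 5 TPM. No simulated library departed from its group over many genes, as in9 replicate 1 did, so these rates may not hold for the real libraries. Smaller changes, such as the 1.19-fold of mt-Nd4, were not simulated.

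The members, gene lists and tests were chosen with earlier results of these data known. All mt- genes are accounted for; of each nuclear list, called genes or else the gene with the smallest p are named. Tried as alternatives were trimmed-mean scaling, quantile normalization, rescaling without mt-Atp8 or without mt- genes, a pseudocount of 0.1, a minimum of 5 TPM or none, library weights, a fit without the trend, a replicate block, other denominators and leaving out each library. Copy sums were chosen after seeing the data.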

Additional observations from a re-analysis of the deposited data

How the results depend on the processing

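With main counts of 110 genes higher and 26 lower, calls over all genes were 24 and 6 without a filter, 27 and 4 without an intensity trend and 1166 and 523 with library weights. The lower count was 45 at a minimum mean of 5 TPM. Leaving out 1 library gave 6 to 971 higher and 1 to 509 lower, the most without in9 replicate 1, and 977 and 513 by copy sums without it. The 1 mitochondrial call, mt-Nd4, became 0 without a filter, without an intensity trend and after trimmed-mean scaling, with or without copy sums. It became 2 (mt-Nd4 and mt-Nd6) after quantile normalization and 7 with library weights. Without in9 replicate 1 it became 7, or 11 by copy sums, and without any other single library 0. The adjusted p of mt-Nd4 ranged from 0.0117 to 0.234 over these alternatives. Nuclear list genes numbered 0 higher and 0 lower, and 4 and 16 with library weights. They numbered 4 and 20 without in9 replicate 1, with or without copy sums, and 0 and 0 without any other single library.

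The replicate block left 1 gene higher and 1 lower overall and 0 mitochondrial genes. Same-numbered libraries correlated in their deviations at -0.0969, 0.0223 and -0.0461, and none of the 3 in9 libraries correlated best with its own number. With so few libraries these values cannot settle whether same-numbered samples were handled together. With 3 pairs the sign-flip test of shares gives at least 0.25.

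Of 299 values for single mitochondrial genes under alternatives, 258 kept direction and side of the threshold. Signs turned for rows with a copy: the log2 fold change of mt-Co2 was -0.0121 with library weights. Leaving out 1 library gave -0.29 (without LV2 replicate 2) to 0.63 (without LV2 replicate 3) for mt-Co3, with -0.06 without in9 replicate 3, and -0.37 (without in9 replicate 1) to 0.37 (without in9 replicate 2) for mt-Atp6. By copy sums mt-Atp6 was at 0.18, 0.11 with trimmed-mean scaling, 0.21 rescaled to the other genes and 0.20 without in9 replicate 1. The log2 fold change of mt-Atp8 was 0.00 after quantile normalization, by its construction. The cause of the other turns was not tested. The share differences kept their sign under each alternative run. They were 0.992 to 1.61 points for all members and 1.67 with the copies. With mt-Atp8 left out of both the members and all TPM, the difference was 0.424 points. For the 12 genes the differences were 0.336 to 0.429 points. TPM keeps no depth, so counting error of low rows is unknown.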
